A study of Mus musculus with 20 samples.

Results

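Hepatokines are proteins that the liver releases into the blood and that act on other organs or on the liver itself. The genes described here are Fgf21, Gdf15, Angptl4, Angptl8, Fst, Tsku, Lect2, Fetub and Igfbp1, which were chosen by name as a set of such secreted metabolic signals. Every row of the probe count matrix whose gene symbol is one of these names was taken, which gave 13 probes of 9 genes among 30146 probes of 21450 symbols. The count filter kept 11 probes of 8 of these genes among 14122 probes in all. It removed the only Gdf15 probe and 1 of the 2 Fst probes, whose counts are given on their own.

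The livers came from male Balb-C mice aged 10 to 12 weeks that received Nafion BP2, a fluorinated ether sulfonic acid byproduct of a fluoropolymer membrane, by gavage on 7 consecutive days. The 5 dose groups were 0 (control), 0.03, 0.3, 3 and 6 mg/kg per day, with 4 mice in each group and 1 liver library per mouse. For the control mice the protocol names deionized water and the sample titles name DMSO, and the labels do not settle between them. TempO-Seq, the assay used, ligates pairs of short detector oligonucleotides on their target RNA and counts the products, so a probe count is not a measure per transcript length and the genes below are compared across doses and not with one another.

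Liver hormones of this kind report on the fed state, nutrient stress and growth. FGF21 is induced by fasting through the nuclear receptor PPARalpha and by amino acid shortage through ATF4, and it acts through FGF receptors together with beta-klotho, while GDF15 is a stress cytokine that is sensed in the hindbrain. Others of the set act in the blood: ANGPTL4 and ANGPTL8 restrain lipoprotein lipase, follistatin binds and blocks activins, and IGFBP1 binds insulin-like growth factors and is repressed by insulin. Tsukushi (Tsku) is a small leucine-rich secreted protein, LECT2 is a leukocyte chemotactic factor made by hepatocytes, and fetuin B (Fetub) is a plasma protease inhibitor related to fetuin A.

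Promoter windows are shown for Fgf21 and Tsku, the genes with the largest fall and the largest rise below, and for Angptl8, whose window shares a motif with Fgf21. The windows are from RefSeq on GRCm38.p6 and run from 250 bases before to 50 bases after an annotated start site, on the strand of the gene. Fgf21 is at chr7:45615441-45615740 (minus strand), Angptl8 at chr9:21835260-21835559 (plus strand) and Tsku at chr7:98361239-98361538 (minus strand). Capitals mark matches to the 10 motifs searched on both strands.
Fgf21: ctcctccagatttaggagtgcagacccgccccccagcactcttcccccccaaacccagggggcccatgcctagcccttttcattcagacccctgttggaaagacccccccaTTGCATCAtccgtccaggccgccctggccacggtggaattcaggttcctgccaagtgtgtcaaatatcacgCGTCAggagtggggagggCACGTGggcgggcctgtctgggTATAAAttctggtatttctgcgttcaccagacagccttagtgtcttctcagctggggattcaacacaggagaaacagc
Angptl8: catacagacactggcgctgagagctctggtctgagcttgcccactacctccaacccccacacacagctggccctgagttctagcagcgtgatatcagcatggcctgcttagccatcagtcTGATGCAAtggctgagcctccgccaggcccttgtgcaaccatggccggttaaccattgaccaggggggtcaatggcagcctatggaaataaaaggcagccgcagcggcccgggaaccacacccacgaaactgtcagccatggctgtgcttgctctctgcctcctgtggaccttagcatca
Tsku: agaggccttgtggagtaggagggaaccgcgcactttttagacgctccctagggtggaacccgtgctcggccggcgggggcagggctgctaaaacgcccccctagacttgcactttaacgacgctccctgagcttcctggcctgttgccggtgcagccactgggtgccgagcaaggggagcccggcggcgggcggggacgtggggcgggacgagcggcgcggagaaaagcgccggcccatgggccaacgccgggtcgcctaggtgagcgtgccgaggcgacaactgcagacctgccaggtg

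The Fgf21 window holds TTGCATCA, the reverse complement of the composite CCAAT enhancer and ATF motif TGATGNAA, starting 139 bases before the start site, and the Angptl8 window holds TGATGCAA 130 bases before it. That motif occurs in 3.97% of the 32851 mouse promoter windows of the same length. Fgf21 also has CGTCA at 68 bases, the reverse complement of the cAMP response core TGACG (20.8% of windows), an E-box CACGTG at 50 bases (7.15%) and a TATA box TATAAA at 28 bases (13.6%) before the start. The Tsku window holds none of the 10. The other motifs searched were AGGTCA (16.3% of windows), its direct repeat bound by PPAR with RXR (0.0396%) and that bound by CAR with RXR (0.0152%), TGACNNNGC (12.4%), TTCNNNGAA (8.30%) and GTAAACA (3.65%). TGACG can lie inside TGACNNNGC and AGGTCA inside its repeats. In 10 windows of 7 of the 9 genes, the composite motif was found in these 2 alone; Angptl4 and Fst had no window in the table used. A match is a string of letters and was not tied to the counts.

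At 6 mg/kg, Tsku and Fst rose and Fgf21 and Lect2 fell relative to control livers, so 4 of the 8 tested genes were called by the edgeR quasi-likelihood test at an adjusted p under 0.05. Of all probes tested in this comparison, 20.3% were called, and of the 11 probes of these genes 3 were higher, where 11.6% of all probes were, and 3 lower, where 8.73% were. At 3 mg/kg, Tsku alone of the 8 was called, where 1.49% of all probes were called, 1.11% higher and 0.382% lower. At 0.3 and at 0.03 mg/kg none of the 8 was called by edgeR, limma-voom or DESeq2. The edgeR test called 0.0% of all probes at both doses, and an unadjusted p under 0.05 was seen for 1 and 2 of the 11 probes, where 8.32% and 3.24% of all probes had one. The median log2 change of the 11 probes at 6 mg/kg was -0.02, beside 0.01 over all probes tested.

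**Figure D1:**
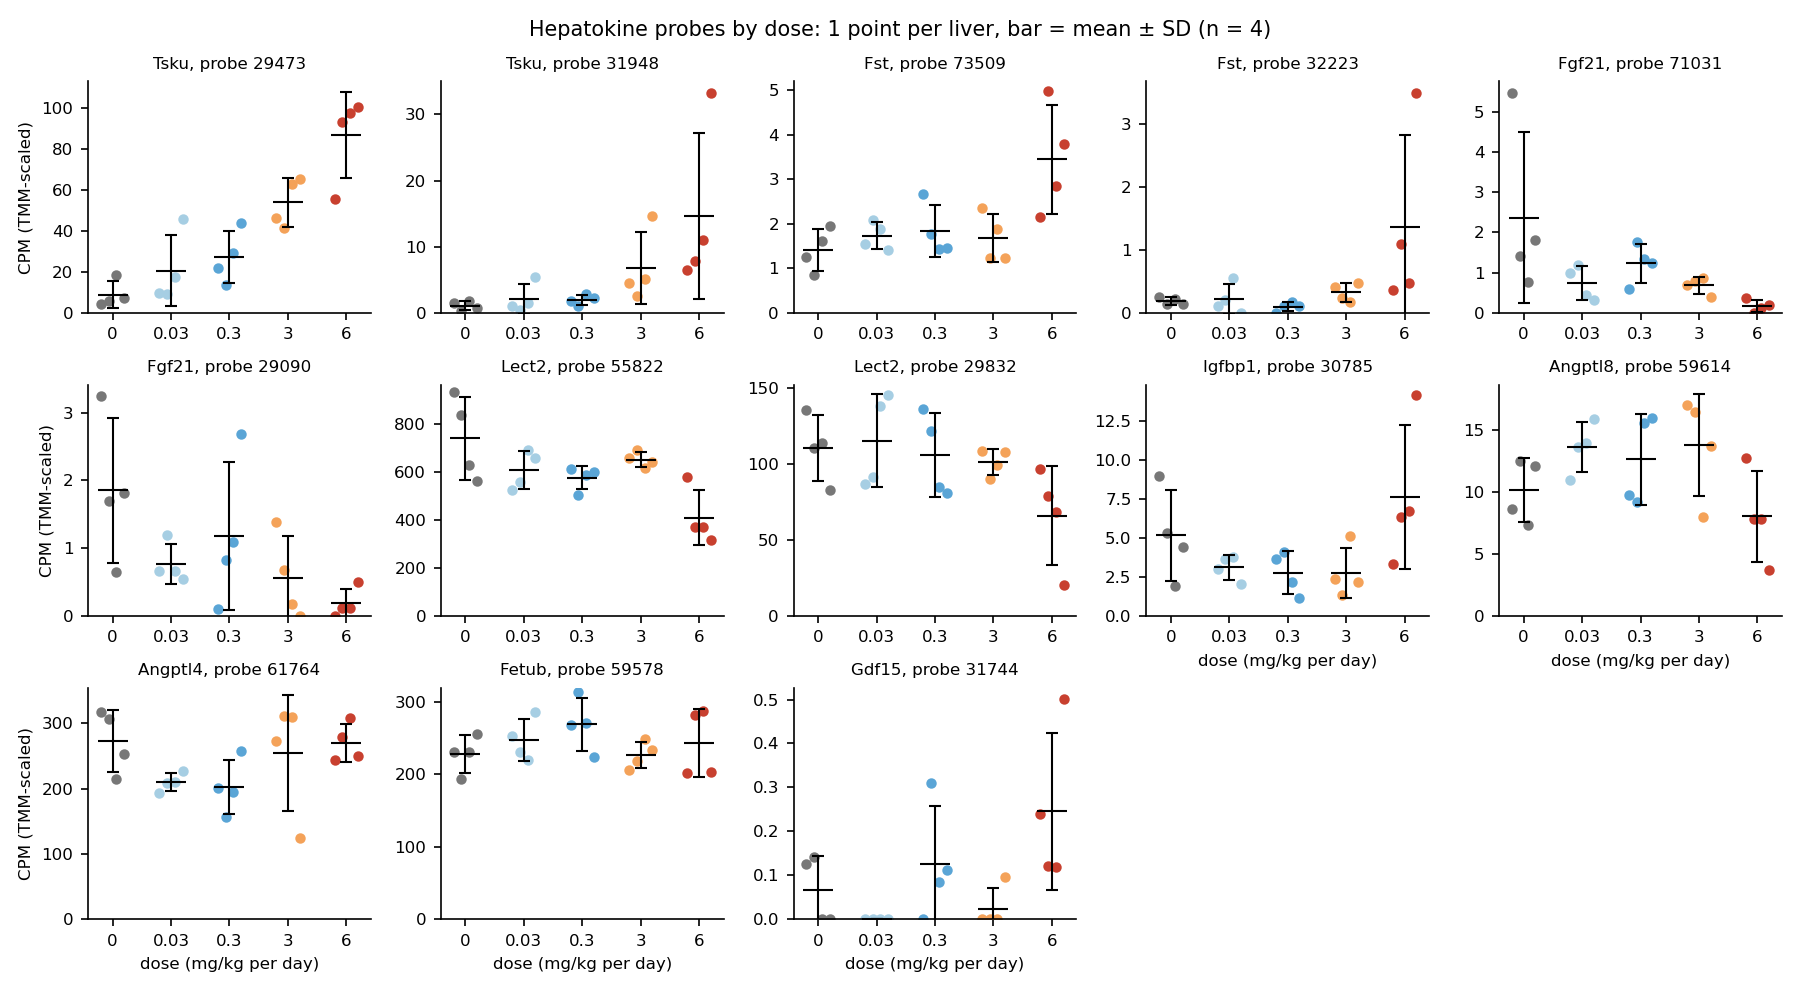
Counts per 1000000 counts of the scaled library (CPM, vertical axes from 0) of each of the 13 probes, by dose from control to 6 mg/kg per day; points are single livers and bars are group means ± SD (n = 4). The 4 livers at 6 mg/kg lie above all 4 controls for both Tsku probes and below all 4 for both Fgf21 probes.

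Tsku, on chromosome 7 at 98350668 to 98361328 (minus strand, GRCm38), showed the largest rise of the set. Its probe 29473 had 55.4, 92.8, 97.3 and 100.5 CPM (counts per 1000000 of the scaled library) in the 6 mg/kg livers, against 4.12, 5.49, 18.3 and 7.27 CPM in control livers. All livers at 6 mg/kg were above every control, and control replicate 3 was the highest control. The 6 mg/kg group averaged 86.5 ± 21.0 CPM and the controls 8.80 ± 6.48 CPM (SD, n = 4 each). The log2 change was 3.28 (SE 0.53, edgeR adjusted p = 0.000301).

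The 3 mg/kg livers held 45.9, 41.5, 62.7 and 65.4 CPM for the same probe, also above every control, with a log2 change of 2.60 over control (SE 0.52, edgeR adjusted p = 0.0136). At 0.3 mg/kg the probe had 21.8, 13.7, 29.3 and 43.9 CPM, which overlapped the controls through replicate 2. At 0.03 mg/kg it had 9.54, 9.05, 17.6 and 45.6 CPM, where replicate 4 stood far above the rest. The log2 changes of 1.61 (SE 0.51) at 0.3 mg/kg and 1.20 (SE 0.51) at 0.03 mg/kg did not pass, with edgeR adjusted p = 0.453 and 1.0. Group means thus ran 8.80, 20.5, 27.2, 53.9 and 86.5 CPM from control to the top dose. Every neighbouring pair of groups overlapped. The highest 0.3 mg/kg liver (43.9 CPM) was above the lowest 3 mg/kg liver (41.5 CPM). Likewise, the highest 3 mg/kg liver (65.4 CPM) was above the lowest 6 mg/kg liver (55.4 CPM). The step from 3 to 6 mg/kg, a log2 of 0.68, was not called (adjusted p of 0.416 by edgeR).

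The second Tsku probe, 31948, had 6.48, 7.80, 11 and 33.3 CPM at 6 mg/kg, against 1.50, 0.282, 1.83 and 0.649 CPM in controls. Again no treated liver overlapped a control, and replicate 4 was 3 times or more as high as the other treated livers. The log2 change was 3.73 (SE 0.77, edgeR adjusted p = 0.00226), and 2.93 without the replicate 4 libraries of the 3 and 6 mg/kg groups, which earlier work on these data found to stand apart (edgeR adjusted p = 0.00189). At 3 mg/kg the log2 change of this probe was 2.62 (SE 0.78), which missed the threshold (edgeR adjusted p = 0.125; DESeq2 called it). Across the 20 libraries the Tsku probes had a Pearson r of 0.884 in log2 CPM, as a description of 2 measures of the same libraries. The 3 mg/kg call of probe 29473 rests on few libraries: it was lost without control replicate 1, 2 or 4 and without the pair of replicate 4 libraries, where the log2 change was 2.46 (edgeR adjusted p = 0.0551).

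Fgf21, on chromosome 7 at 45613886 to 45615490 (minus strand), fell to a few counts per library at the top dose. The summed counts of its 2 probes were 3, 1, 2 and 7 per library at 6 mg/kg, against 70, 22, 13 and 28 in controls. Every treated liver was below every control, and control replicate 1 held more than the other 3 controls together. Relative to library size the 6 mg/kg group held 8.97% of the control level, a ratio of 0.0897 with an exact 95% counting interval of 0.0465 to 0.159 that leaves out the spread between mice. Loss of this RNA per cell and fewer cells that make it cannot be told apart in whole liver, here or for any gene below.

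By probe, Fgf21 71031 had 0.360, 0, 0.118 and 0.200 CPM at 6 mg/kg, against 5.49, 1.41, 0.755 and 1.82 CPM in controls. A count of 3 corresponded to 0.251 to 0.511 CPM across libraries, so the treated values lie at or near the limit of detection and the fitted fold change is imprecise. The log2 change was -3.68 (SE 0.70, edgeR adjusted p = 0.000847), and -2.83 without control replicate 1 (edgeR adjusted p = 0.00557). Probe 29090 was at -3.13 (SE 0.90, edgeR adjusted p = 0.0180), which did not pass without control replicate 1 (-2.70, edgeR adjusted p = 0.0652).

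The lower doses did not follow a simple order for Fgf21. Summed counts of the 2 probes per library were 15, 24, 10 and 8 at 0.03 mg/kg, 7, 25, 29 and 35 at 0.3 mg/kg and 15, 13, 6 and 4 at 3 mg/kg. All 3 groups overlapped the controls. Relative to library size the groups held 36.9%, 57.0% and 28.3% of the control level. The log2 change of probe 71031 was -1.64 (SE 0.55) at 0.03 mg/kg, -0.93 (SE 0.52) at 0.3 mg/kg and -1.82 (SE 0.58) at 3 mg/kg, none past the threshold (edgeR adjusted p = 1.0, 0.644 and 0.148). These values lean on control replicate 1, which held 70 of the 133 control counts: without it the log2 changes of probe 71031 were -0.80, -0.09 and -0.95 at the 3 doses.

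Gdf15, on chromosome 8 at 70629393 to 70632456 (minus strand), was close to undetected in all groups. Its probe had 2, 1, 1 and 5 counts in the 6 mg/kg livers, against 1, 1, 0 and 0 in controls. The 4 libraries at 0.03 mg/kg had 0 counts, for which the upper 95% counting limit is 3.69 counts over the 4 together, and the 3 mg/kg group had 1 count in all. The ratio of 6 mg/kg to control was 4.13, with an exact 95% counting interval of 0.854 to 39.3. The difference of 0.38 on the scale of log2(CPM + 0.5) had p = 0.171 in an exact two-sided permutation test of 4 against 4 libraries, where 0.0286 is the smallest p possible. A change from control was not detectable at this depth. Against 3 mg/kg the 6 mg/kg livers did not overlap and differed by 0.48 on that scale (exact two-sided permutation p = 0.0286, the smallest possible, and 0.143 after Benjamini-Hochberg adjustment over the 10 exact tests of the probes outside the filter). That separation sets 1 count in each of the 2 lowest 6 mg/kg livers against 1 count in the highest 3 mg/kg liver, and without replicate 4 at 6 mg/kg the exact p was 0.0571.

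Fst, which encodes follistatin, on chromosome 13 at 114452290 to 114458951 (minus strand), rose at 6 mg/kg. Probe 73509 had 2.16, 4.99, 2.84 and 3.80 CPM at 6 mg/kg, against 1.25, 0.844, 1.62 and 1.95 CPM in controls. The groups did not overlap, though the lowest treated liver and the highest control were close. The log2 change was 1.27 (SE 0.33, edgeR adjusted p = 0.00869). The probe that the filter removed, 32223, had 3, 9, 4 and 35 counts at 6 mg/kg, against 2, 1, 2 and 1 in controls, and did not overlap either. Its difference on the scale of log2(CPM + 0.5) was 1.16, with an exact two-sided permutation p of 0.0286, the smallest that 4 against 4 libraries can give (0.143 after the same adjustment over 10 tests), and 0.69 without replicate 4 at 6 mg/kg, which alone holds 35 of the 51 treated counts.

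At the lower doses Fst overlapped the controls, with 1 library above the highest control at each dose. Probe 73509 had 1.41 to 2.09 CPM at 0.03 mg/kg, 1.42 to 2.68 CPM at 0.3 mg/kg and 1.24 to 2.35 CPM at 3 mg/kg, with log2 changes of 0.29, 0.36 and 0.21 over control. Between 6 and 3 mg/kg it differed by 1.06 (SE 0.32, edgeR adjusted p = 0.0495), a call at the edge of the threshold. Leaving out 1 library at a time kept that call in 1 of 8 fits, and without the pair of replicate 4 libraries the difference was 0.90 (edgeR adjusted p = 0.0905).

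**Figure D2:**
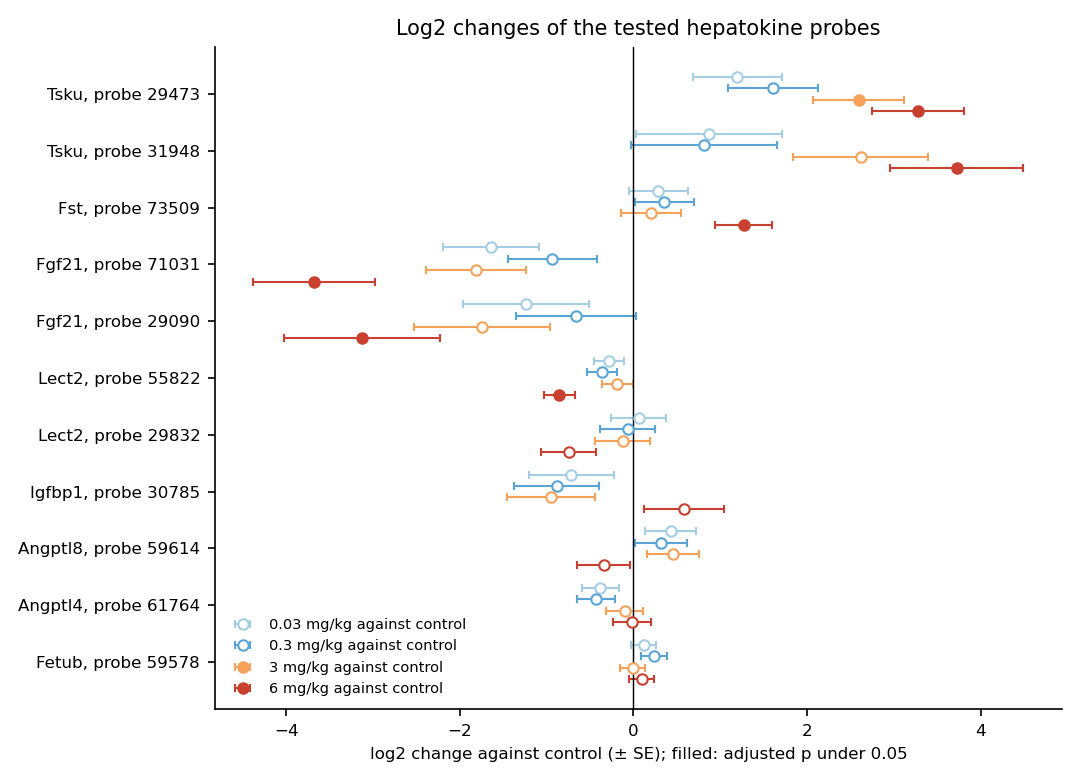
Log2 change over control of the 11 tested probes at each dose, from 0.03 to 6 mg/kg; bars are ± SE and filled symbols mark an edgeR adjusted p under 0.05. Tsku lies to the right and Fgf21 to the left at every dose, while Angptl4 and Fetub stay near 0 at 6 mg/kg.

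The lipase inhibitors did not pass at any dose. Angptl4, on chromosome 17 at 33773750 to 33781830 (minus strand), had 243.6, 279.7, 307.8 and 250.3 CPM at 6 mg/kg, against 316.9, 306.6, 215.2 and 253.9 CPM in controls. The groups lay on top of each other, with a log2 change of -0.01 (SE 0.22) and an approximate 95% interval of -0.44 to 0.41, so a doubling is outside the interval. At 0.03 and 0.3 mg/kg the values of 193.9 to 227.8 and 157.2 to 257.5 CPM overlapped the controls, with log2 changes of -0.38 and -0.43. In the 3 mg/kg group replicate 4 stood apart at 124.6 CPM, while the other 3 had 273.1 to 311.2 CPM.

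Angptl8, on chromosome 9 at 21835510 to 21837347 (plus strand), had 12.7, 7.80, 7.81 and 3.70 CPM at 6 mg/kg, against 8.61, 12.5, 7.33 and 12.1 CPM in controls. Only replicate 4 at 6 mg/kg lay below all controls. The log2 change was -0.34 (SE 0.31, edgeR adjusted p = 0.446), and -0.08 without the pair of replicate 4 libraries. Means at 0.03, 0.3 and 3 mg/kg were 13.6, 12.6 and 13.8 CPM, with 10.1 CPM in controls. The 6 mg/kg group was lower than the 3 mg/kg group by a log2 of 0.80, which did not pass (change of -0.80, SE 0.30, edgeR adjusted p = 0.113).

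Lect2, on chromosome 13 at 56542464 to 56548502 (minus strand), fell at the top dose. Probe 55822 had 578.5, 370.8, 371.4 and 318.5 CPM at 6 mg/kg, against 932.3, 839.2, 627.4 and 563.3 CPM in controls. Replicate 1 at 6 mg/kg overlapped the lowest control and the other 3 were below all controls. The log2 change was -0.85 (SE 0.18, edgeR adjusted p = 0.00199). Probe 29832 had 96.4, 79.1, 68.1 and 20.1 CPM at 6 mg/kg, against 135.3, 110.2, 113.9 and 82.8 CPM in controls, and its change of -0.75 (SE 0.32) missed the threshold (edgeR adjusted p = 0.100). Without the pair of replicate 4 libraries it was -0.43.

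The fall in Lect2 was seen between 3 and 6 mg/kg. At 3 mg/kg probe 55822 had 657.4, 691.3, 617.2 and 642.1 CPM, all inside the range of the controls and all above the 6 mg/kg livers. The difference of 6 from 3 mg/kg was -0.67 (SE 0.18, edgeR adjusted p = 0.0274). That call was lost under scaling by total counts (-0.58, edgeR adjusted p = 0.0665) and in 5 of 8 fits with 1 library left out. At 0.03 and 0.3 mg/kg the means were 609 and 576 CPM, with log2 changes of -0.28 and -0.36 over control, and neither passed.

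Fetub, on chromosome 16 at 22918334 to 22939778 (plus strand), had 202.3, 281.9, 286.8 and 202.7 CPM at 6 mg/kg, against 231.3, 194.1, 230.6 and 256.3 CPM in controls. The groups overlapped, with a log2 change of 0.09 (SE 0.15) and an approximate 95% interval of -0.20 to 0.38. Over all 5 groups its means stayed between 226.7 and 269.3 CPM. Ahsg, which encodes fetuin A and lies beside Fetub on chromosome 16, from 22891277 to 22899449, did not stay level. It had 795, 702, 713 and 468 CPM at 6 mg/kg, against 1849, 1718, 1745 and 1717 CPM in controls, with no overlap, and a log2 change of -1.39 (SE 0.16, edgeR adjusted p = 3.25e-06).

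Set against each other, Fetub rose relative to Ahsg with dose in the group means. The mean log2 ratio of Fetub to Ahsg CPM was -2.95 ± 0.17 in controls, -2.75 ± 0.08 at 0.03, -2.59 ± 0.23 at 0.3, -2.30 ± 0.41 at 3 and -1.45 ± 0.35 at 6 mg/kg (SD, n = 4 each). At 6 mg/kg the difference from control was 1.50 and at 3 mg/kg 0.65, each with an exact two-sided permutation p of 0.0286, the smallest possible, and 0.0572 after Benjamini-Hochberg adjustment over 4 doses. All 4 livers of each of these doses were above all controls. At 3 mg/kg this was narrow, with replicate 1 at -2.731 and control replicate 4 at -2.744. This ratio was chosen after its values were seen, and probe efficiencies cancel only in its differences, not in its level.

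**Figure D3:**
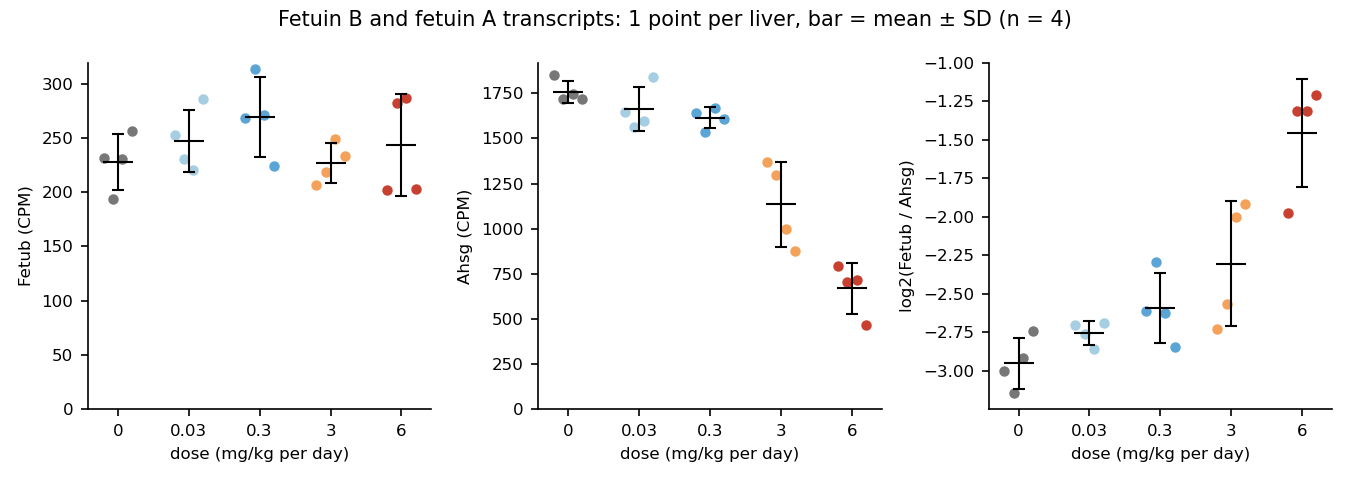
CPM of Fetub and Ahsg in each liver (axes from 0) and their log2 ratio, by dose from control to 6 mg/kg per day; points are livers and bars are group means ± SD (n = 4). Fetub stays level over the doses while Ahsg falls to 468 to 795 CPM at 6 mg/kg, against 1717 to 1849 CPM in controls.

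Igfbp1, on chromosome 11 at 7197782 to 7202546 (plus strand), varied widely between mice. It had 3.36, 6.33, 6.74 and 14.2 CPM at 6 mg/kg, against 8.99, 5.35, 1.94 and 4.41 CPM in controls, so that the groups overlapped. The log2 change of 0.58 (SE 0.46) did not pass (edgeR adjusted p = 0.386) and was 0.11 without the pair of replicate 4 libraries. Means were 5.17 CPM in controls, 3.13, 2.78 and 2.75 CPM at 0.03, 0.3 and 3 mg/kg and 7.66 CPM at 6 mg/kg. The 6 mg/kg group was higher than the 3 mg/kg group by 1.53 (SE 0.49), which missed the threshold (edgeR adjusted p = 0.0645). It was called under total counts (1.70, edgeR adjusted p = 0.0453), by DESeq2 (1.51, adjusted p = 0.0266) and in 2 of 8 fits with 1 library left out, and was 0.99 without that pair (edgeR adjusted p = 0.215).

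Taking dose as a rank over all 20 libraries, the same 4 genes were called as at 6 mg/kg. Tsku rose by 0.79 per dose step (SE 0.11, edgeR adjusted p = 2.41e-05) at probe 29473 and Fst by 0.27 (SE 0.08, adjusted p = 0.0167). Fgf21 changed by -0.68 per step at probe 71031 (SE 0.15, edgeR adjusted p = 0.00322) and Lect2 by -0.16 at probe 55822 (SE 0.05, adjusted p = 0.0233). The Lect2 slope missed the threshold under total counts (edgeR adjusted p = 0.0527), with log10(dose + 0.01) in place of the rank (adjusted p = 0.0694), with plate row (adjusted p = 0.0642) and in 5 of 20 fits with 1 library left out. With plate row as a covariate the Tsku and Fst slopes were lost too (edgeR adjusted p = 0.0805 at Tsku probe 29473 and 0.0805 at Fst probe 73509). Fgf21 alone of the genes kept its slope call in that fit, at least through probe 29090. That probe changed by -0.61 per step in the main fit (SE 0.19, edgeR adjusted p = 0.0255). Its call held in all 8 alternatives that tested it and in 16 of 20 fits with 1 library left out. Probe 71031 was called in 7 of 8 alternatives and in all 20 of those fits. Of all probes, 18.0% were called for this slope, 11.3% upwards and 6.72% downwards. Between 6 and 3 mg/kg, 2 of the 8 genes were called, Fst higher and Lect2 lower, where 6.73% of all probes were, 3.96% higher and 2.77% lower. Complete separation from the controls was seen at 6 mg/kg for 3 higher and 2 lower of the 11 probes, where 13.2% and 13.6% of all probes were so separated, and at 3 mg/kg for 2 higher and 0 lower, where 3.35% and 4.62% were.

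Plate position goes with dose in this design: row A held every control and 0.03 mg/kg library, row B held every library at the top pair of doses, and the 0.3 mg/kg group had 3 libraries in row A and 1, replicate 4, in row B. Row is thus the same within 0.03 mg/kg against control and within 6 against 3 mg/kg. With plate row as a covariate, an effect that rests on that 1 library, 1 of the 8 genes was called at 6 mg/kg, Fgf21 through probe 29090 (-5.08, edgeR adjusted p = 0.0367), and none at 3 mg/kg. Probe 29090 held 7 counts in all at 6 mg/kg, and Fgf21 probe 71031 was not called in that fit (edgeR adjusted p = 0.088). Tsku 29473 was then at 2.26 (SE 0.98, edgeR adjusted p = 0.201), Fst 73509 at 1.68 (SE 0.65, adjusted p = 0.146) and Lect2 55822 at -0.93 (SE 0.34, adjusted p = 0.124) at 6 mg/kg. The directions were kept while the standard errors grew, and for 3 and 6 mg/kg against control row and dose cannot otherwise be told apart.

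Genes related to these signals were followed in lists, whose counts are to be read against the 11.6% of all probes that were higher and the 8.73% that were lower at 6 mg/kg. Among 11 tested genes of FGF21 supply and signalling, 1 rose (11.6% of all probes) and 2 fell (8.73%) at 6 mg/kg, with a median log2 change of -0.20. Mlxipl, which encodes the carbohydrate-responsive factor ChREBP, rose by 1.61 (SE 0.42, edgeR adjusted p = 0.0117). Fgfr2, a fibroblast growth factor receptor, averaged 71.4 ± 11.7 CPM at 6 mg/kg and 171.6 ± 23.0 CPM in controls (SD, n = 4 each; log2 -1.26, edgeR adjusted p = 3.94e-06), and Ppara was at -0.81 (edgeR adjusted p = 0.00230). The highest probe stands for each gene, and of the 3 other Fgfr2 probes 1 was at -1.31 while the rest were at 0.16 and -0.29. Creb3l3 and Nr1h4 were not called by their highest probes. A second probe of each passed, at 1.02 for Creb3l3 (edgeR adjusted p = 0.00105) and -2.71 for Nr1h4 (edgeR adjusted p = 0.00165), and is not in the counts. The co-receptor Klb missed the threshold with a log2 change of 0.31 (edgeR adjusted p = 0.567).

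Of 14 tested genes of the integrated stress response and GDF15 signalling, 3 rose (11.6% of all probes) and 2 fell (8.73%), with a median of 0.18. Trib3, a pseudokinase target of ATF4, averaged 4.46 ± 2.15 CPM at 6 mg/kg and 1.31 ± 0.38 CPM in controls (SD, n = 4 each), a log2 of 1.77 (edgeR adjusted p = 0.00358). Vldlr, the very low density lipoprotein receptor, rose by 2.11 (edgeR adjusted p = 0.00553) and Cebpb, a transcription factor, by 0.92 (adjusted p = 0.00719). Eif2ak1, a kinase of the translation factor eIF2, was at -0.44 (edgeR adjusted p = 0.0176) and Atf4 itself at -0.68 (adjusted p = 0.0470), while a second Atf4 probe was at 0.11. Both of those calls were lost under scaling by total counts.

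Of 15 tested genes of the ANGPTL and lipoprotein lipase system, 0 rose (11.6% of all probes) and 1 fell (8.73%), with a median of -0.09. The one is Apoa5, an apolipoprotein that aids lipolysis, at 599.9 ± 121.3 CPM at 6 mg/kg and 1101 ± 208 CPM in controls (SD, n = 4 each; log2 -0.88, edgeR adjusted p = 0.000679). Of the 2 other Apoa5 probes, 1 was at -1.17 (edgeR adjusted p = 0.057) and 1 at 0.05. Lipc was not called by its highest probe (-0.25), while its other probe passed at -0.57 (edgeR adjusted p = 0.00433) and is not in the counts. Of 12 tested genes of the activin and follistatin system, 0 rose (11.6% of all probes) and 3 fell (8.73%) beside the rise in Fst, with a median of 0.03. Inhbe, the hepatic activin E subunit, was at -0.77 (edgeR adjusted p = 0.0103), the receptor Acvr2a at -0.55 (adjusted p = 0.0131) and Inhba, the activin A subunit, at -0.97 (adjusted p = 0.0455). The 2 other Inhba probes were at 0.09 and -0.26, and under scaling by total counts only Inhbe of the 3 was called.

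Of 15 tested genes of the insulin-like growth factor system, 1 rose (11.6% of all probes) and 4 fell (8.73%) at 6 mg/kg, with a median of -0.23. Irs2, an insulin receptor substrate, averaged 9.66 ± 3.14 CPM at 6 mg/kg and 4.22 ± 0.84 CPM in controls (SD, n = 4 each), a rise of 1.20 (edgeR adjusted p = 0.00220). Igf1, the growth factor itself, averaged 49.5 ± 6.2 CPM at 6 mg/kg and 88.7 ± 10.0 CPM in controls, at a log2 of -0.84 (edgeR adjusted p = 0.000109). The growth hormone receptor Ghr was at -1.56 (edgeR adjusted p = 0.0223) and Foxo1, an insulin-restrained transcription factor, at -1.48 (adjusted p = 0.0142). Igfbp3 was not called by its highest probe (-0.74), while its other probe passed at -0.78 (edgeR adjusted p = 0.00711) and is not in the counts.

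A further list set genes beside the fetuins and LECT2, and it also holds kininogens and Wnt-pathway genes. Of its 9 tested genes, 0 rose and 4 fell at 6 mg/kg (8.73% of all probes fell), with a median of -0.72, and 2 fell at 3 mg/kg (0.382%). Besides Ahsg they include Lgr5, a Wnt-pathway receptor of pericentral hepatocytes, with 0.629 ± 0.504 CPM at 6 mg/kg and 4.06 ± 1.16 CPM in controls (SD, n = 4 each; log2 -2.67, edgeR adjusted p = 0.000795), and Kng2, a kininogen, at -0.72 (adjusted p = 0.00916). Kng1 was not called by its highest probe (-0.45). Another of its probes passed at -1.14 (edgeR adjusted p = 0.00191) and is not in the counts, and a further one was at -0.38. In the 3 mg/kg livers Lgr5 was at -2.45 (edgeR adjusted p = 0.0114) and Ahsg at -0.63 (adjusted p = 0.0424), and both calls were lost with plate row as a covariate. Without the pair of replicate 4 libraries 7 of the 9 fell at 6 mg/kg, where 13.7% of all probes fell. Of 22 other tested secreted liver signals, 2 rose (11.6% of all probes) and 8 fell (8.73%), with a median of -0.21. Rbp4, the retinol carrier, rose by 1.35 (edgeR adjusted p = 0.0291) and Lcn2, a siderophore-binding lipocalin, by 1.31 (adjusted p = 0.0476). Lrg1, a leucine-rich glycoprotein, was at -1.31 (edgeR adjusted p = 0.000209), Itih3, a hyaluronan-binding inhibitor chain, at -0.92 (adjusted p = 0.000386) and Hgf, the hepatocyte growth factor, at -1.24 (adjusted p = 0.000624).

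**Figure D4:**
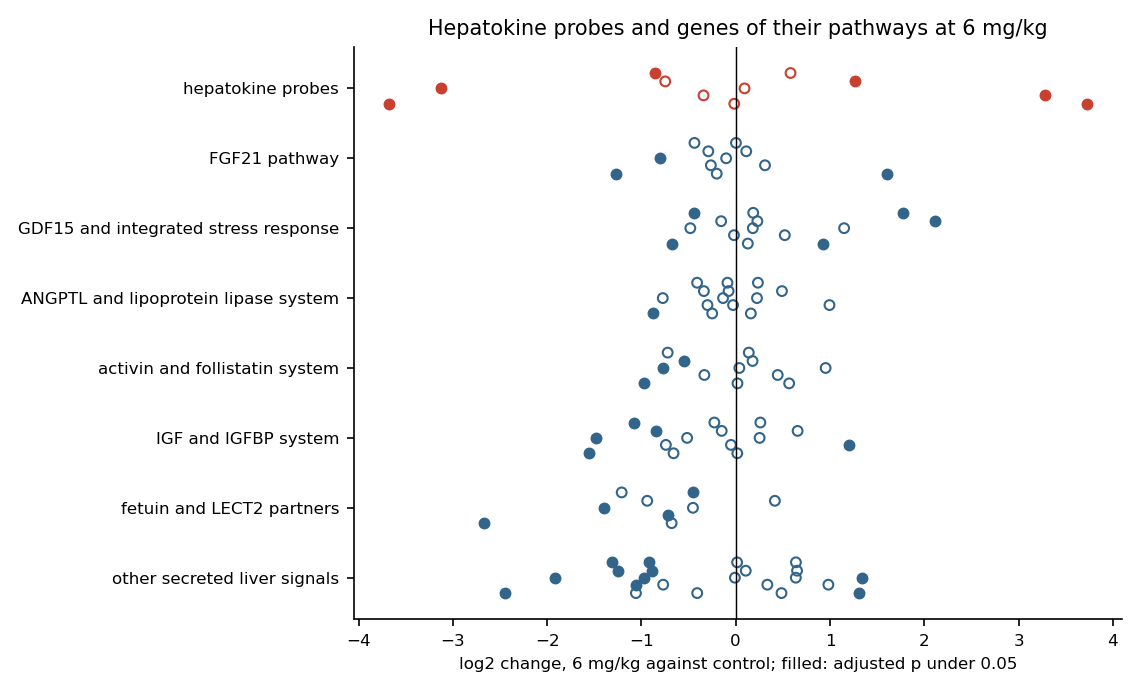
Log2 change at 6 mg/kg over control of each tested gene in the 7 lists of related genes, with 1 point per gene; filled points had an edgeR adjusted p under 0.05, and the top line holds the 11 hepatokine probes. The list named fetuin and LECT2 partners, which also holds Wnt-pathway genes, has the lowest median, -0.72, beside 0.01 over all probes.

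All 24 list genes named at 6 mg/kg were called in the same direction without the pair of replicate 4 libraries, and 20 of 24 under scaling by total counts, which moved the median of all probes to 0.15. With plate row as a covariate 5 were called, Fgfr2, Acvr2a, Ahsg, Lrg1 and Itih3, and all 24 kept their sign. In that fit 1.8% of all probes were higher and 1.8% lower, though the 24 had been picked as called in the main fit. At 3 mg/kg, Lgr5 and Ahsg were called under total counts and without the pair, and neither was with plate row. Without the pair the insulin-like growth factor list also had 1 of 15 tested genes lower at that dose, where 1.23% of all probes were lower.

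Markers of other liver cells moved beside these changes. Summed over 12 hepatocyte markers the livers held 21100 to 24500 CPM at 6 mg/kg and 29700 to 35600 CPM in controls, so the tissue carries its defining markers, and without Alb the sums were 16100 to 18500 and 19100 to 24000 CPM. Stellate cell and fibroblast markers, whose cells also express Hgf, summed to 112 to 158 CPM at 6 mg/kg and 204 to 233 CPM in controls, and 5 of 11 tested fell and 1 rose, where 8.73% of all probes fell and 11.6% rose. Kupffer cell markers summed to 77.5 to 128 and 120 to 175 CPM in the same groups, with 2 of 10 lower (8.73% of all probes), and endothelial markers to 230 to 340 and 268 to 330 CPM. All of the 12 markers of each of these 4 lists had counts. Adipocyte markers summed to 25.9 to 37.6 CPM at 6 mg/kg and 8.96 to 14.6 CPM in controls, but without Fabp4 only to 0.48 to 1.18 and 0 to 1.27 CPM. Lymphocyte and neutrophil markers summed to 41.6 to 67.4 CPM at 6 mg/kg and 13.9 to 27.0 CPM in controls, but without S100a8 to 8.70 to 17.8 and 12.7 to 23.8 CPM. Cholangiocyte markers summed to 27.2 to 35.8 and 28.3 to 35 CPM in these groups, erythroid markers to 24.2 to 44.2 and 24.5 to 54.8 CPM, and exocrine pancreas markers to 4.97 to 7.43 and 4.21 to 7.88 CPM, all overlapping. Without Cela1 the exocrine pancreas markers summed to 3.84 to 6.33 CPM at 6 mg/kg and 0.389 to 3.24 CPM in controls. Pnliprp1 carried that difference, at a mean of 4.49 CPM at 6 mg/kg and 0.0352 CPM in controls, while Cpb1 had 0.0596 and 0.427 CPM, Try4 0.242 and 0.762 CPM and Cpa1 0.0305 and 0.0936 CPM in the same groups. The part of these markers in the changes of the secreted signals was not tested.

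Genes whose pattern over the 20 libraries was most like that of each signal were taken among 8705 probes with a mean of at least 5 CPM, by Pearson r of log2(CPM + 0.5), as a description of libraries that share dose groups, plate rows and scaling. For Tsku they were Ces2c, a carboxylesterase (r = 0.918), Ctps, a CTP synthase (0.889), and Abhd5, an activator of triglyceride lipase (0.883). For Lect2 they were Igkc, an immunoglobulin light chain (r = 0.930), Wfdc17 (0.910) and Mbl1, a mannose-binding lectin (0.896). For Fgf21 they were Mif4gd (r = 0.855), Sp100 (0.846) and the histone gene H2afv (0.845), and for Fst Psmd11, a proteasome subunit (0.818), Abhd4 (0.817) and Kmt5a, a histone methyltransferase (0.808). For Angptl4 the nearest was Eci3 (r = 0.862), for Angptl8 Zfp654 (0.837), for Fetub Keap1, the NRF2 sensor (0.874), and for Igfbp1 the replication clamp Pcna (0.828).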

How the data were processed

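Liver RNA of 20 mice was measured with TempO-Seq, and the authors deposited raw counts per probe, 1 column per library, with no normalization visible in the values. Per the submitters' processing notes, Bowtie and GRCm38.p5 were used; for the settings: not given in the sources used here. Library totals ran from 6823518 to 10310931 counts.

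Probes passing filterByExpr (14122, holding 99.8% of counts) were fitted with edgeR 4.0.16 (R 4.3.3): TMM scaling, a robust quasi-likelihood fit of all 20 libraries with 1 mean per group, and Benjamini-Hochberg adjustment over all probes at 0.05. A gene was called where at least 1 of its probes passed. CPM values use TMM-scaled library sizes. Probes removed by the filter and the fetuin ratio had exact permutation tests. In the gene lists, a gene is represented by its most abundant probe. Named genes were all 9 signals, the 3 called genes of lowest p in each list, upwards and downwards, at 6 and at 3 mg/kg, and the 3 nearest patterns of each signal. Klb was named after its value was seen. Creb3l3, Nr1h4, Lipc, Igfbp3 and Kng1 were also named after their values were seen, because a probe other than their highest passed. The secreted signals and all lists were chosen with earlier results of these data known.

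Alternatives were RLE or total-count scaling, other filters, DESeq2 1.42.0, limma-voom (limma 3.58.1), probes summed per symbol, plate row, the compared groups only, log10(dose + 0.01), and libraries left out; list counts under other fits and the pseudocounts for the removed probes were added after seeing the data. Functions were checked on simulated counts. No copied library was found among 30 within-group pairs (lowest chi-square over degrees of freedom 4.03). Intervals and floors reflect counting error alone: reads copied by amplification do not stand for separate molecules. Gene coordinates are from GENCODE M21 on GRCm38; probe positions were not used here.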

Additional observations from a re-analysis of the deposited data

Results flagged for a closer look

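In each group of 4 libraries with a spread, the gap of the highest or lowest library to its nearest neighbour was set against the group's range. Of 64 such groups of the 13 probes, 3 had a library beyond the 95% critical value of Dixon's test, and chance alone gives about 1 in 20. For Tsku 29473 at 6 mg/kg, replicate 1 was lowest at 55.4 CPM, against 92.8 to 101 CPM in the other 3 livers of that dose. For Tsku 31948 at 6 mg/kg, replicate 4 was highest at 33.3 CPM, against 6.48 to 11 CPM in the other 3. For Gdf15 at 3 mg/kg, replicate 4 held the only count of its group, at 0.0954 CPM.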

How the results depend on the processing

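No paired analysis was possible because each library is from a different mouse and the labels link no mice across doses. The labels carry no replicate numbers, and the numbers used here follow the order of the plate wells within each group. Of the 8 genes, 4 were called at 6 mg/kg against control in the main analysis, 2 where the filter was a mean of at least 5 CPM (which removes Fgf21 and Fst) and 1 with plate row. With the compared groups only 3 were called, Fst, Lect2 and Tsku, and Fgf21 was not among them. At 3 mg/kg 1 was called, and 0 with plate row, without the pair of replicate 4 libraries or with the compared groups only, and 0 to 1 with 1 library left out. Between 6 and 3 mg/kg 2 were called, against 1 with every probe with a count, the 5 CPM filter, plate row or without the pair, 0 with the compared groups only, and 0 to 4 with 1 library left out. For the slope over dose rank 4 were called, 3 with total counts or with log10(dose + 0.01), 2 with the 5 CPM filter, 1 with plate row and 2 to 4 with 1 library left out. The cause of these losses was not tested, beyond the smaller set of probes or libraries that some alternatives use.

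Some changes that were not called turned sign. Angptl4 at 6 mg/kg was 0.119 with total counts, 0.000963 with every probe, 0.0317 with the 5 CPM filter, 0.0360 without the pair, and -0.11 to 0.0732 with 1 library left out. At 3 mg/kg it was 0.126 without the pair and -0.214 to 0.13 with 1 left out, and between 6 and 3 mg/kg -0.0901 without the pair and -0.127 to 0.196. Fetub at 3 mg/kg was 0.0294 with total counts, 0.00799 with every probe, 0.0131 with the 5 CPM filter, 0.337 with plate row, 0.0084 with the compared groups only and -0.0807 to 0.0669 with 1 left out. Lect2 29832 was 0.377 at 3 mg/kg with plate row (-0.225 to 0.0139 with 1 left out), 0.0905 with total counts and 0.0461 with plate row at 0.3 mg/kg (-0.203 to 0.0576), and -0.0688 to 0.177 at 0.03 mg/kg. With plate row at 3 mg/kg Igfbp1 was 0.599 and Angptl8 -0.00729. Tsku 31948 at 0.03 mg/kg ran from -0.234 to 1.28 with 1 left out.

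Calls over all probes moved too: 2867 at 6 mg/kg became 508 with plate row; 211 at 3 mg/kg became 131 with the 5 CPM filter, 387 with DESeq2, 379 without the pair, 44 with the compared groups only and 1 with plate row; 950 between 6 and 3 mg/kg became 1439 with DESeq2, 2478 without the pair and 11 with the compared groups only; and 2541 for the slope became 603 with plate row. Total counts gave 1894 higher and 811 lower at 6 mg/kg, against 1634 and 1233. Depth limits Gdf15, Fgf21 at 6 mg/kg and Fst 32223, which lie near the floor of 3 counts.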
